A study of Mus musculus with 139 samples.

Results

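The genes described here are 7 that mark or act in the passage of the mouse epiblast out of naive pluripotency: the DNA methyltransferase family members Dnmt1, Dnmt3a, Dnmt3b and Dnmt3l, and the formative-state genes Otx2, Pou3f1 and Fgf5. They were chosen by name, as the rows whose gene name equals a member, and all 7 were found among the 52885 genes of each of the 7 expression tables. DNA methyltransferases place methyl groups on the cytosine of CG pairs. Dnmt1 copies methylation onto the new strand after replication, Dnmt3a and Dnmt3b place it on unmethylated DNA, and Dnmt3l has no catalytic activity of its own but binds and stimulates both of them. Otx2 is a homeodomain transcription factor that drives exit from the naive state, Pou3f1 (Oct6) is a POU-domain factor of the epiblast, and Fgf5 encodes a secreted fibroblast growth factor that is the classic marker of the post-implantation epiblast. Dnmt3a, Dnmt3b, Otx2, Pou3f1 and Fgf5 are known to rise when naive mouse cells become formative, while Dnmt3l is known for its high level in embryonic stem cells and germ cells.

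All libraries came from mouse embryonic stem cells (ESCs) in which EXOSC2, a subunit of the RNA-degrading exosome, carries an auxin-inducible degron (AID), or from fibroblast-like cells derived from them. The auxin IAA (indole-3-acetic acid), at 0.5 mM, was given for the stated hours to deplete EXOSC2. The degron is present in every group, the 0 h cells included, and no library of cells without the degron but with IAA is used here, so effects of depletion and of IAA itself cannot be told apart. ESCs were grown on gelatin in serum with LIF. Total RNA of ESCs was measured at 0, 4 and 20 h, and nascent RNA, labelled for 10 min with ethynyl uridine, at 0, 1, 2 and 4 h. ESCs were further split into the fractions labelled chrRNP, np, cyto and wcl at 4 h and 0 h. RNPmesh, the nuclear material that resists DNase I and then urea, detergent and concentrated salt, was sampled at 0, 4 and 12 h. Its libraries are listed as polyadenylated RNA. Sucrose gradient fractions F2 to F9 of nuclear lysate were sampled at 12 h and 0 h. Polyadenylated RNA also came from cells labelled RAD1 and RAD0, and total RNA from iMEFs, each at 0, 4 and 20 h. The growth protocol shared by RAD0 and RAD1 describes 24 h in 2 µM retinoic acid without LIF, and the labels do not spell out the 2 names. iMEFs were derived from the same ESCs by 10 days in 1 µM retinoic acid without LIF and selection by quick attachment. Each group has 2 libraries except the sucrose fractions, which have 1; nothing in the labels says that the 2 came from separate cultures, so the p-values measure the spread between libraries, which may be technical.

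The values are the authors' FPKM (reads per kilobase of transcript, scaled to the library's mapped reads), or RPKM over the whole gene span for nascent RNA, and total read counts per library are not given with FPKM, so depth there is unknown. In the nascent table the low values step in whole reads for 80.7% to 89.9% of values (within 0.05 of a read), and 94.5% to 96.4% of those counts were even. These steps put the total to which each library was scaled at 5355450 to 11306600 reads, with 4489780 to 9255760 reads in the table's genes. Markers set the kinds of cell apart. Summed retinoic acid response markers (Hoxb1, Cyp26a1, Rarb, Stra6, Stra8) stood at 732 to 737 FPKM in RAD1 and 4.67 to 6.25 in RAD0 at 0 h. Summed fibroblast markers stood at 1891 to 1900 FPKM in iMEFs and 63.5 to 71.5 in ESCs at 0 h, where Fn1 made up nearly all of the sum. ESC markers (Pou5f1, Sox2, Nanog, Zfp42, Esrrb) summed to 0.541 to 1.08 FPKM in iMEFs and 809 to 874 in ESCs at 0 h. 3 libraries stood apart: in RNPmesh at 0 h replicate 2, RNPmesh at 4 h replicate 1 and ESCs at 4 h replicate 1 a single small-RNA or ribosomal-spacer gene held 42.2%, 19.3% and 15.2% of the summed FPKM. Exosc2 RNA was at 2.74 to 3.75, 2.17 to 2.64 and 0.938 to 1.04 FPKM in ESCs at 0, 4 and 20 h; the degron removes the protein, so this is no check of depletion.

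In mm10 coordinates as the files give them (starts moved to count from 1), Dnmt1 (ENSMUSG00000004099.16) spans chr9:20907209-20959888 on the minus strand, Dnmt3a (ENSMUSG00000020661.15) chr12:3807030-3914443, Dnmt3b (ENSMUSG00000027478.15) chr2:153649450-153687730 and Dnmt3l (ENSMUSG00000000730.13) chr10:78042287-78063622, all 3 on the plus strand. Otx2 (ENSMUSG00000021848.16) spans chr14:48657677-48673819 on the minus strand, Fgf5 (ENSMUSG00000029337.2) chr5:98254184-98277030 on the plus strand, and Pou3f1 (ENSMUSG00000090125.3) chr4:124656807-124660655. All are protein-coding. RefSeq (GRCm38.p6, the same build as mm10) gave promoter windows, 250 bases before to 50 after the start, for 15 start sites of 6 members, Pou3f1 having none in the table. The windows below are shown because the methyltransferase start sites differ in the feature the enzymes act on and in their chromatin mark; each runs 5′ to 3′ on the gene's strand, and capitals mark CG pairs.

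Dnmt3a upstream start, chr12:3806910-3807209, plus strand: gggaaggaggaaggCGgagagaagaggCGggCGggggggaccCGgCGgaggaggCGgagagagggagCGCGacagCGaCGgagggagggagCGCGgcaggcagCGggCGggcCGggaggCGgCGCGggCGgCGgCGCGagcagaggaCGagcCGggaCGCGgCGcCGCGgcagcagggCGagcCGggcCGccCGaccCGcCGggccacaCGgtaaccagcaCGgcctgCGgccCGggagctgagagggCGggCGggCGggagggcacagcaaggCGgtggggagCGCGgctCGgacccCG
Dnmt3a internal start, chr12:3891494-3891793, plus strand: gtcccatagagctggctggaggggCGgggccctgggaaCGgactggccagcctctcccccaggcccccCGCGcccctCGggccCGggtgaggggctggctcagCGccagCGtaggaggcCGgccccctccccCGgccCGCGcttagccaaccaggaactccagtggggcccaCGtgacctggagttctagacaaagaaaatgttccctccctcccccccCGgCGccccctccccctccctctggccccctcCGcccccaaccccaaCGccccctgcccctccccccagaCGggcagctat
Dnmt3l, chr10:78049592-78049891, plus strand: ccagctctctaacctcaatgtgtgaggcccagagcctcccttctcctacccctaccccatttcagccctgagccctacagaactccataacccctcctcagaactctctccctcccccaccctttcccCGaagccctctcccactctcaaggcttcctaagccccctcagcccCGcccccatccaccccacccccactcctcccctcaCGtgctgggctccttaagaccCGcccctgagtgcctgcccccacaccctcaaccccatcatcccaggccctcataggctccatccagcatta
Dnmt3b, chr2:153649199-153649498, plus strand: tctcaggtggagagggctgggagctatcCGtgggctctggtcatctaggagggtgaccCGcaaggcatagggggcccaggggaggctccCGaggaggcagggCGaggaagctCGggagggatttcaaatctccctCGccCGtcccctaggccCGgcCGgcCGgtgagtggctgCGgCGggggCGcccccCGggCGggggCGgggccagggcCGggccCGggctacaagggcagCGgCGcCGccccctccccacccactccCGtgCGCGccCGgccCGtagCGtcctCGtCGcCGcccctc
Dnmt1 innermost start, chr9:20952574-20952873, minus strand: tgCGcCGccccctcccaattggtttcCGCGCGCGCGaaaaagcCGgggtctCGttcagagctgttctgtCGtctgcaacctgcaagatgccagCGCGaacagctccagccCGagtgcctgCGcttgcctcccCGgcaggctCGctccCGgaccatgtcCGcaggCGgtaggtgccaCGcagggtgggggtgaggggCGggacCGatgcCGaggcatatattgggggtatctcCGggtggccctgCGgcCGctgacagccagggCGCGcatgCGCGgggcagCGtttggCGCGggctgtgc

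The upstream Dnmt3a window held 47 CG pairs, the internal one 18, Dnmt3b 30, the innermost Dnmt1 start 33 and Dnmt3l 4, beside a median of 7 (quartiles 3 and 20) over the 32851 start sites of the table. Dnmt3a has 2 well-known promoters: the internal one gives a shorter protein that is the main form in mouse ESCs. Fgf5 held 29 CG pairs, and the 4 Otx2 windows held 6 to 16. The letters TAATCC, bound by OTX proteins, occurred on either strand in 1 of the 15 member windows (an Otx2 start at 48665109) and in 7.06% of all windows; ATGCAAAT, the octamer of POU factors, occurred in 0 of 15 and in 1.74% of all. A match is a description of these letters and not a bound site.

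H3K27ac, an acetylation of histone H3 found at active promoters and enhancers, was taken from the authors' peak lists for ESCs at 4 h (20449 peaks) and 0 h (16239 peaks), 1 list for each time, which hold positions only. A peak within 1000 bases marked the same number of member start sites at both times, 4 of 15, at 3 of 6 members, against 28.6% of all start sites at 4 h and 27.7% at 0 h. The marked Dnmt3a start was the internal one, 93 bases from a peak at chr12:3891837-3892561 at 4 h and 130 bases from one at chr12:3891874-3892599 at 0 h. The 2 upstream Dnmt3a starts, with their many CG pairs, had no peak within 1000 bases at either time. The Dnmt1 start printed above lay inside a peak at both times, chr9:20951548-20953792 (2245 bases) at 4 h and chr9:20951598-20952914 (1317 bases) at 0 h. At Dnmt3l the peak ended 169 bases before the printed start at 4 h and 232 bases before it at 0 h. Dnmt3b had its nearest peak 16419 bases away at 4 h and 16273 at 0 h, and no peak lay within the gene span of Dnmt3b, Otx2, Pou3f1 or Fgf5 at either time. More peaks were called at 4 h than at 0 h over the whole genome, so single gains (3 peaks in the Dnmt1 span at 4 h and 1 at 0 h, 4 and 3 in that of Dnmt3a) were not tested.

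In total RNA of ESCs the methyltransferases were the most abundant members, in the order Dnmt3l, Dnmt3b, Dnmt1, Dnmt3a, Pou3f1, Otx2 and Fgf5 at 0 h, and libraries of neighbours in that order did not overlap. Over 20 h of IAA Dnmt3a fell furthest, followed by Dnmt3b and Dnmt3l, and Dnmt1, the maintenance enzyme, fell least of the 4. Dnmt3a stood at 25.5 and 20.1 FPKM at 0 h, 15.7 and 15.7 at 4 h and 2.01 and 2.10 at 20 h. Dnmt3b stood at 61.5 and 54.7 FPKM at 0 h, 40.6 and 46.3 at 4 h and 12.02 and 12.1 at 20 h. Dnmt3l stood at 99.8 and 89.6 FPKM at 0 h, 61.8 and 82.6 at 4 h and 21.5 and 19.9 at 20 h. In all 3 genes both 4 h libraries lay below both 0 h libraries, and both 20 h libraries lay far below both 4 h libraries. On the log2 scale used below, the median gene also moved, by -0.31 at 4 h and -0.76 at 20 h. How many of all genes were without overlap was not counted. Dnmt1 stood at 44.4 and 39.9 FPKM at 0 h, 31.7 and 37.7 at 4 h and 23.2 and 23.01 at 20 h, a smaller step with both 20 h libraries nearly equal. At 20 h the order of levels became Dnmt1, Dnmt3l, Dnmt3b, Pou3f1, Dnmt3a, Otx2 and Fgf5, with Dnmt3a below Pou3f1.

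On the log2(FPKM + 1) scale, with limma fitted across 12461 genes and Benjamini-Hochberg adjustment at 0.05, 5 of the 6 members tested fell at 20 h against 0 h, where 67.8% of all genes fell and 9.47% rose and the median gene moved by -0.76. Dnmt3a changed by -2.95 ± 0.14 (SE; adjusted p = 7.69e-05). Dnmt3b changed by -2.18 ± 0.13 (SE; adjusted p = 7.71e-05). Dnmt3l changed by -2.14 ± 0.17 (SE; adjusted p = 1.15e-04). These 3 encode the enzymes of new methylation and their cofactor. Otx2 changed by -1.11 ± 0.16 (SE; adjusted p = 8.57e-04). Dnmt1 changed by -0.84 ± 0.13 (SE; adjusted p = 0.00124). Otx2 reached the minimum of 1 FPKM in 2 libraries only through the 0 h group, where it is high, so its calls at 4 and 20 h support no count; of the other 5 members 4 fell at 20 h and 1 at 4 h. A count of 5 in 6 is near the background of that table. After each library was rescaled by its median ratio, so that the typical gene did not move, 27.5% of genes rose and 27.8% fell. Dnmt3a then still changed by -2.17 (adjusted p = 1.44e-04), Dnmt3b by -1.26 (adjusted p = 9.78e-05) and Dnmt3l by -1.21 (adjusted p = 2.45e-04), while Dnmt1 turned to 0.09 (adjusted p = 0.186). On the authors' scaling the change of Dnmt1 was close to that of the median gene. FPKM scaled to mapped reads gives a gene's level relative to the rest of its library. Neither the number of cells nor the RNA per cell can be read from such values. ESC markers moved with these genes, summing to 250 to 271 FPKM at 20 h, and their part in the result was not tested.

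**Figure D1:**
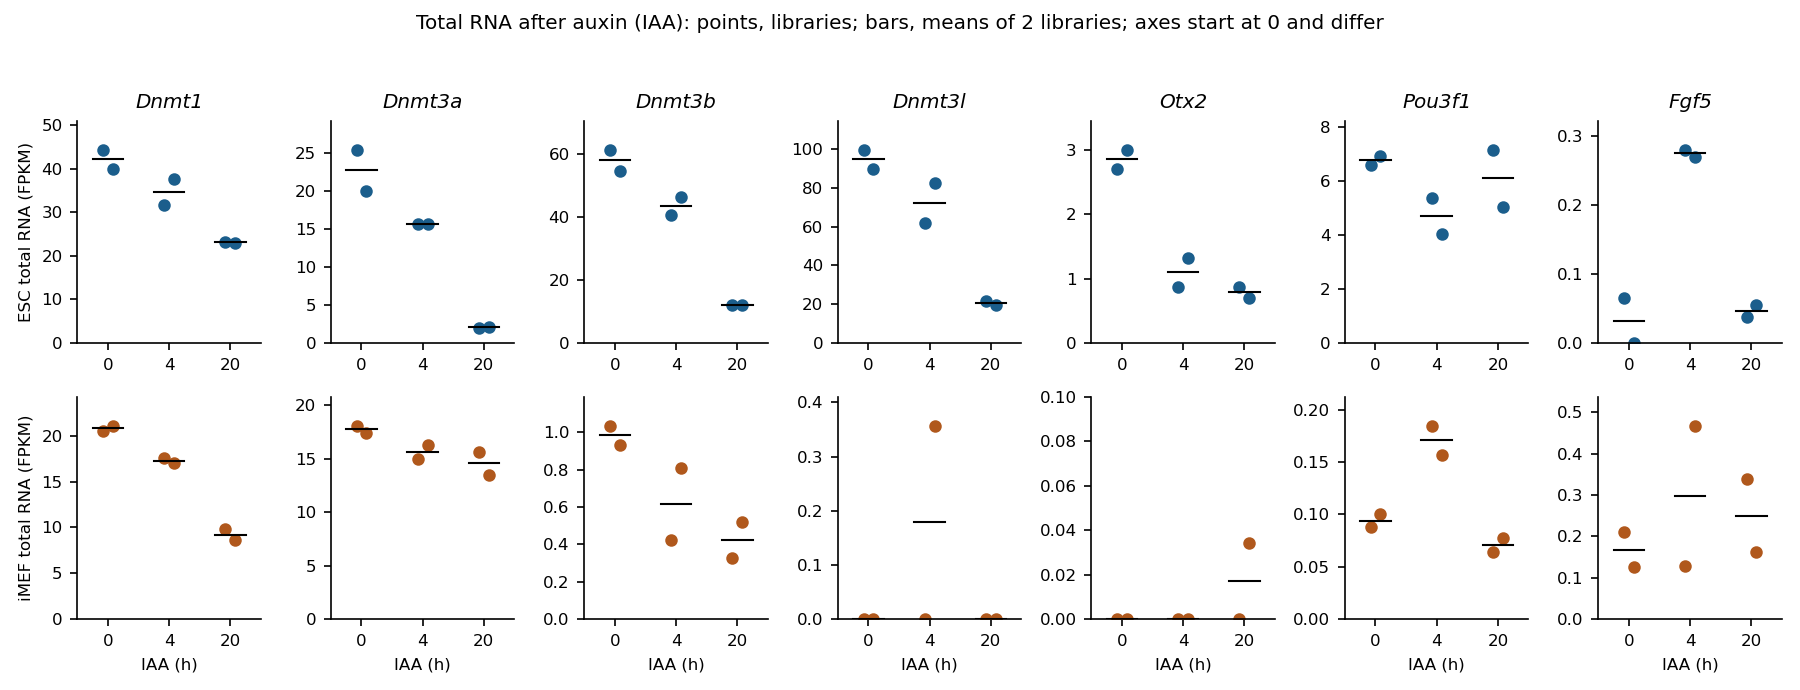
FPKM of the members in total RNA by hours of IAA, of ESCs, upper row, and of iMEFs, lower row, with 1 point per library and a bar at the mean of 2 libraries; each panel's axis starts at 0 and the axes differ. Dnmt3a, Dnmt3b and Dnmt3l are lowest at 20 h in both ESC libraries, and Dnmt3a is at 2.01 and 2.10 FPKM there in ESCs.

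The formative transcription factors did not move as a block in ESCs. Otx2 stood at 2.70 and 3.004 FPKM at 0 h, 0.871 and 1.32 at 4 h and 0.868 and 0.702 at 20 h, so that its low level was reached by 4 h in both libraries. Pou3f1 stood at 6.61 and 6.94 FPKM at 0 h, 5.39 and 4.05 at 4 h and 7.17 and 5.03 at 20 h, with the 20 h libraries on both sides of those at 0 h. It differed by -0.15 ± 0.19 (SE; adjusted p = 0.487) at 20 h, no call; with rescaled libraries it was 0.69 (adjusted p = 0.0458), higher. Fgf5 was listed at 0.0646 and 0 FPKM at 0 h, 0.280 and 0.270 at 4 h and 0.0372 and 0.0548 at 20 h, under the minimum of 1 FPKM in every library, and was not tested. At 4 h 2 of the 6 tested members fell, where 21.2% of all genes fell, 4.47% rose and the median gene moved by -0.31. Dnmt3a changed by -0.50 ± 0.14 (SE; adjusted p = 0.0438). Otx2 changed by -0.88 ± 0.16 (SE; adjusted p = 0.0206). With no filter neither was called, at adjusted p = 0.095 for Dnmt3a and 0.0664 for Otx2. Neither passed with rescaled libraries (5.95% of all genes rose, 2.05% fell), Dnmt3a at -0.14 (adjusted p = 0.525) and Otx2 at -0.62 (adjusted p = 0.0579). Dnmt3b and Dnmt3l were at -0.41 and -0.40 at 4 h, not called, and at -0.04 and -0.02 with rescaled libraries. The call of Dnmt3a was lost on leaving out each of the 6 libraries in turn (adjusted p 0.0626 to 0.242), and that of Otx2 without either 0 h library or without 4 h replicate 1 (0.0632 to 0.103). Without 4 h replicate 2, Dnmt1, Dnmt3b and Dnmt3l were called lower too, at adjusted p = 0.0475, 0.0337 and 0.0291.

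At 20 h against 4 h 4 of 6 tested members fell, where 48.6% of all genes fell and 7.86% rose. Dnmt3a changed by -2.45 ± 0.14 (SE; adjusted p = 2.30e-04). Dnmt3b changed by -1.77 ± 0.13 (SE; adjusted p = 2.85e-04). Dnmt3l changed by -1.74 ± 0.17 (SE; adjusted p = 4.97e-04). Dnmt1 changed by -0.56 ± 0.13 (SE; adjusted p = 0.0112), the smallest of the 4. Otx2, already low at 4 h, was at -0.23 ± 0.16 (SE; adjusted p = 0.267) over that interval, no further call. The median gene moved by -0.43; rescaled, 24.9% of genes rose and 25.9% fell, Dnmt1 was at -0.00 (adjusted p = 0.965) and Pou3f1 at 0.81 (adjusted p = 0.0299). Without either 20 h library the Dnmt1 call was lost (adjusted p 0.0566 and 0.0617).

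Genes that work with the methyltransferases, none of them members, mostly fell in ESCs at 20 h as well, as did most genes. Over all genes 9.47% rose and 67.8% fell, and 27.5% rose and 27.8% fell with rescaled libraries. Of a list of DNA methylation machinery (recruiters, readers, TET oxidases and imprint factors) 0 rose and 20 fell of 23 tested (median -1.20) against a median of -0.76 over all genes, and 2 rose and 12 fell with rescaled libraries. Uhrf1, which brings Dnmt1 to newly replicated DNA, was at 14.5 ± 0.229 FPKM at 20 h and 86.98 ± 7.84 FPKM at 0 h (SD, n = 2 each; -2.50, adjusted p = 7.71e-05). Tet1, which oxidises methylcytosine, was at 11.3 ± 0.494 FPKM at 20 h and 53.8 ± 1.11 FPKM at 0 h (SD, n = 2 each; -2.16, adjusted p = 7.71e-05). Trim28, the co-repressor that recruits silencing machinery to KRAB zinc finger proteins, was at 90.2 ± 5.69 FPKM at 20 h and 448 ± 11.9 FPKM at 0 h (SD, n = 2 each; -2.30, adjusted p = 8.06e-05). Among other formative and primed epiblast genes 0 rose and 13 fell of 15 tested (median -1.32), 3 rose and 8 fell when rescaled. Foxd3, a forkhead factor of the exit from naive pluripotency, was at 0.583 ± 0.554 FPKM at 20 h and 13.2 ± 0.0942 FPKM at 0 h (SD, n = 2 each; -3.21, adjusted p = 1.16e-04). In the FGF pathway 2 rose and 14 fell of 16 tested (median -0.83), and 4 rose and 4 fell when rescaled (median -0.00). Its ESC ligand Fgf4 was at 6.45 ± 0.0547 FPKM at 20 h and 50.5 ± 2.93 FPKM at 0 h (SD, n = 2 each; -2.79, adjusted p = 7.69e-05). Naive pluripotency genes had the lowest median of these lists: 0 rose and 10 fell of 10 tested (median -2.07), 1 rose and 8 fell when rescaled. Nanog was at 10.4 ± 1.07 FPKM at 20 h and 98.2 ± 2.77 FPKM at 0 h (SD, n = 2 each; -3.13, adjusted p = 7.69e-05). Of 14 germline genes that DNA methylation is known to silence, 5 passed the filter; 1 rose and 4 fell of 5 tested (median -0.77), Taf7l being the one that rose (0.85, adjusted p = 0.00343).

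Nascent RNA, which reports synthesis in a 10 min window, was measured over the first 4 h. Dnmt3a stood at 0.553 and 0.820 RPKM at 0 h, 0.538 and 0.523 at 1 h, 0.530 and 0.572 at 2 h and 0.183 and 0.313 at 4 h, resting on 158 to 646 reads a library, and the 4 h libraries were the lowest of the 8. Dnmt3b stood at 4.17 and 3.49 RPKM at 0 h, 3.26 and 2.99 at 1 h, 2.85 and 2.63 at 2 h and 3.11 and 1.95 at 4 h, on 529 to 1738 reads, with all later libraries below both 0 h libraries. Among all genes, the share without overlap between times in nascent RNA was not counted. Dnmt1 stood at 1.98 and 2.45 RPKM at 0 h, 2.18 and 2.29 at 1 h, 2.39 and 2.65 at 2 h and 2.46 and 2.43 at 4 h, with the times overlapping. Dnmt3l at 0.491 and 1.12 RPKM at 0 h, 0.965 and 0.975 at 1 h, 0.489 and 1.25 at 2 h and 0.538 and 0.542 at 4 h also overlapped between times, its 0 h libraries differing more than 2-fold. Otx2 stood at 0.353 and 0.625 RPKM at 0 h, 0.286 and 0.151 at 1 h, 0.449 and 0.333 at 2 h and 0 and 0.122 at 4 h, on 0 to 82 reads. Pou3f1 stood at 2.44 and 0.679 RPKM at 0 h, 0.109 and 1.04 at 1 h, 0.368 and 0.725 at 2 h and 0 and 1.47 at 4 h, on 0 to 102 reads, counts that carry wide counting error, and Fgf5 had reads in 1 library of 8.

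With limma on log2(RPKM + 1) 4 members passed the filter of 1 RPKM in 2 libraries (Dnmt1, Dnmt3b, Dnmt3l and Pou3f1), and Dnmt3a, Otx2 and Fgf5 did not. Of these 4, 0 passed the test at 1, 2 or 4 h, while 0, 0 and 1 (Dnmt3b) had an unadjusted p under 0.05. Few genes passed the adjusted test: 0.0451% rose and 0% fell at 1 h, 0.0113% and 0% at 2 h, and 1.57% and 0.338% at 4 h. Dnmt3b was at -0.47 ± 0.18 (SE; adjusted p = 0.273) at 4 h. With no filter on low values Dnmt3a was at -0.43 at 4 h (unadjusted p = 0.0273, adjusted p = 0.360) and Otx2 at -0.48 (0.0160 and 0.292). No change of the 4 tested members in nascent RNA was detectable with 2 libraries a time.

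Across the subcellular fractions of ESCs the methyltransferase transcripts were lowest in chrRNP. At 0 h Dnmt3l had 29.1 and 55.2 FPKM in chrRNP, against 228 and 207 in cyto, with 128 and 142 in np. Dnmt3a had 4.39 and 7.85 FPKM in chrRNP, against 36.5 and 30.4 in cyto, with 16.1 and 17.5 in np. Dnmt3b had 11.9 and 21.02 FPKM in chrRNP, against 75.9 and 71.8 in cyto, with 45.4 and 51.2 in np. In these 3 genes the chrRNP, np and cyto libraries did not overlap, and cyto was highest. The median gene also differed between chrRNP and cyto, by -0.88 on the log2 scale. The share of all genes without overlap between fractions was not counted. Dnmt1 differed in order, with 12.6 and 18.1 FPKM in chrRNP, against 45.7 and 41.3 in cyto but 47.5 and 47.9 in np, above both cyto libraries. Pou3f1 had 2.61 and 3.80 FPKM in chrRNP, against 22.4 and 22.4 in cyto and 10.96 and 13.3 in np, and Otx2 2.14 and 2.96 FPKM in chrRNP, against 7.97 and 7.91 in cyto and 6.52 and 6.48 in np. Fgf5 lay between 0 and 0.493 FPKM in all 16 libraries.

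In limma's test of chrRNP against cyto at 0 h all 6 tested members were lower, where 63.4% of all genes were lower and 14.3% higher and the median gene differed by -0.88. Pou3f1 differed by -2.49 ± 0.16 (SE; adjusted p = 8.51e-07). Dnmt3l differed by -2.41 ± 0.27 (SE; adjusted p = 1.16e-05). Dnmt3a differed by -2.31 ± 0.23 (SE; adjusted p = 5.32e-06). These 3 carried the largest differences among the members. Dnmt3b differed by -2.15 ± 0.22 (SE; adjusted p = 6.42e-06). Dnmt1 differed by -1.46 ± 0.17 (SE; adjusted p = 1.34e-05). Otx2 differed by -1.34 ± 0.20 (SE; adjusted p = 7.77e-05). Rescaled, 37.4% of genes were higher and 32.9% lower, and the first 4 stayed lower while Dnmt1 was at -0.08 (adjusted p = 0.345) and Otx2 at -0.18 (adjusted p = 0.362). For np against cyto 4 of 6 members were lower, where 33.8% of all genes were lower and 28.0% higher, the median gene differed by -0.11, and 32.7% were higher and 29.0% lower when rescaled. Dnmt3a differed by -0.95 ± 0.23 (SE; adjusted p = 0.004). Pou3f1 differed by -0.84 ± 0.16 (SE; adjusted p = 0.00102). Dnmt3l differed by -0.69 ± 0.27 (SE; adjusted p = 0.0465). As for chrRNP, Dnmt1 was not among the lowest here. Dnmt3b differed by -0.61 ± 0.22 (SE; adjusted p = 0.0319). The Dnmt3b call was lost without any 1 of the np or cyto 0 h libraries (adjusted p 0.0612 to 0.156), and the Dnmt3l call without any 1 np, cyto or wcl library at either time (0.0605 to 0.180). Dnmt1 was at 0.13 ± 0.17 (SE; adjusted p = 0.524) in np against cyto, and at 0.38 (adjusted p = 6.45e-04), higher, when rescaled.

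**Figure D2:**
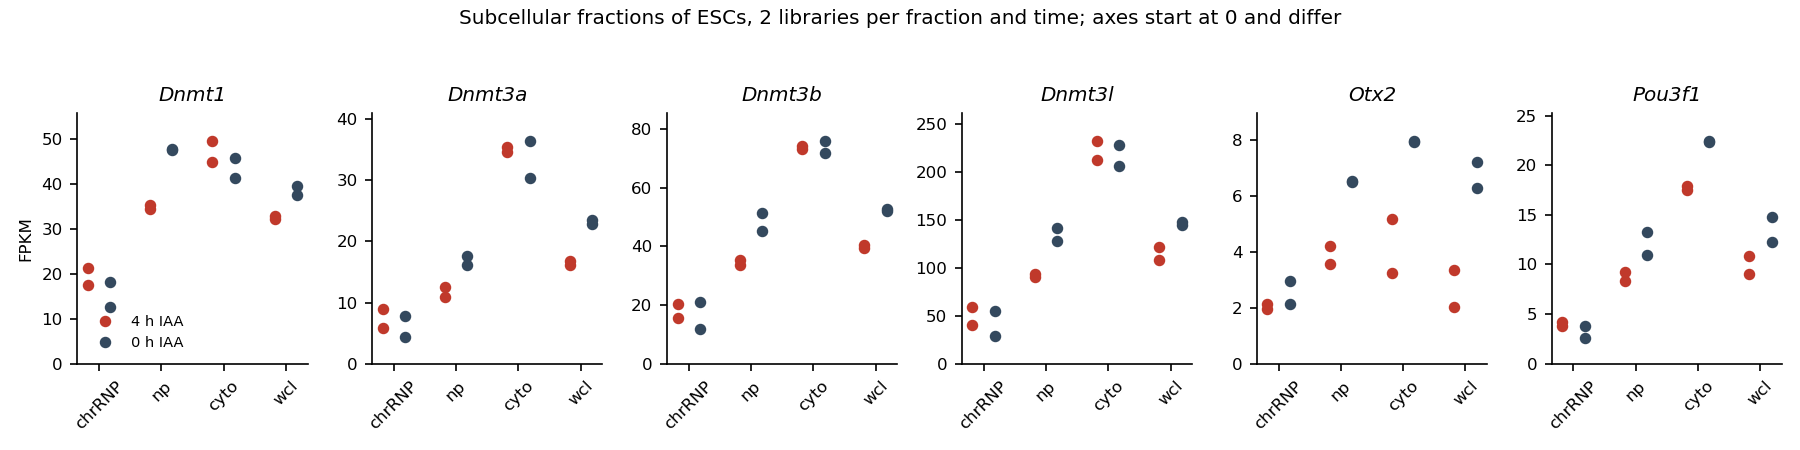
FPKM of 6 members in the 4 subcellular fractions of ESCs at 4 h (red) and 0 h (dark), 1 point per library and 2 libraries per fraction and time; axes start at 0 and differ. Dnmt3a, Dnmt3b and Dnmt3l rise in the order chrRNP, np, cyto at both times, and Otx2 is lower at 4 h in np, cyto and wcl.

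Otx2 was the member that moved within the fractions by 4 h. In wcl it had 2.04 and 3.36 FPKM at 4 h, against 7.21 and 6.29 at 0 h. In cyto it had 3.23 and 5.16 FPKM at 4 h, against 7.97 and 7.91 at 0 h, and in np 3.56 and 4.20 FPKM at 4 h, against 6.52 and 6.48 at 0 h. The 4 h and 0 h libraries of Otx2 did not overlap in any of these 3 fractions, while in chrRNP it had 1.94 and 2.15 FPKM at 4 h, against 2.14 and 2.96 at 0 h, which overlapped narrowly. For all genes, the share without overlap was not counted. Otx2 was then compared in the test. It changed by -1.09 ± 0.20 (SE; adjusted p = 0.00454) in wcl, the 1 member of 6 called, where 13.5% of all genes fell and 5.74% rose (rescaled, -0.88 (adjusted p = 0.00763), with 3.61% lower and 6.74% higher). In cyto it changed by -0.81 ± 0.20 (SE; adjusted p = 0.0355), again 1 of 6, where 1.41% fell and 5.04% rose, and in np by -0.62 ± 0.20 (SE; adjusted p = 0.0368), 1 of 6, where 23.4% fell and 7.43% rose. The np value was -0.39 (adjusted p = 0.151) when rescaled, with 8.05% of genes lower and 8.72% higher, and its call was lost without any 1 of the 4 np libraries (adjusted p 0.08 to 0.186). The cyto call was lost without either cyto 0 h library or cyto 4 h replicate 1 (0.134 to 0.262), and narrowly (adjusted p 0.05 to 0.0553) without either np library of either time, either wcl 0 h library or chrRNP 4 h replicate 1.

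The methyltransferases moved little in cyto at 4 h. Dnmt3a had 35.4 and 34.6 FPKM at 4 h, against 36.5 and 30.4 at 0 h there. Dnmt3b had 73.1 and 74.2 FPKM at 4 h, against 75.9 and 71.8 at 0 h in cyto, and Dnmt3l had 212 and 233 FPKM at 4 h, against 228 and 207 at 0 h. The times overlapped in all 3, whereas in np both 4 h libraries lay below both 0 h libraries. In np Dnmt3a had 10.8 and 12.6 FPKM at 4 h, against 16.1 and 17.5 at 0 h. Dnmt3b had 33.5 and 35.3 FPKM at 4 h, against 45.4 and 51.2 at 0 h in np, and Dnmt3l had 90.7 and 93.9 FPKM at 4 h, against 128 and 142 at 0 h. Both 4 h libraries of Pou3f1 lay below both 0 h libraries in each of these fractions, with 8.34 and 9.22 FPKM at 4 h, against 10.96 and 13.3 at 0 h in np and 17.5 and 17.9 FPKM at 4 h, against 22.4 and 22.4 at 0 h in cyto. None of these was called with all libraries. The median gene moved by -0.29 in np and by 0.04 in cyto. How many of all genes were without overlap was not counted. With rescaled libraries the np values of Dnmt3a, Dnmt3b, Dnmt3l and Pou3f1 were -0.23, -0.20, -0.26 and -0.16, and none was called. Without either chrRNP 0 h library, which differ from each other, all 6 members were called lower in np (Dnmt3a at -0.49, adjusted p = 0.0319) and Dnmt3b and Pou3f1 joined Otx2 in wcl (adjusted p = 0.034 and 0.0342). In chrRNP limma called 0 of 6 members at 4 h, with 0 at an unadjusted p under 0.05, where 7.95% of all genes rose, 0.867% fell and the median gene moved by 0.21 (rescaled, 8.71% and 8.31%); without chrRNP 0 h replicate 2 the count was 5, all higher, with Dnmt3l at 0.73 (adjusted p = 0.0183). The test of whether the 4 h change differed between chrRNP and cyto called 0 of 6 members (0.0924% of all genes higher, 0.0426% lower; 1, Pou3f1, at an unadjusted p under 0.05), and that between np and cyto 0 of 6 (0.419% higher, 0.583% lower; 0.611% and 0.0782% rescaled; 1, Dnmt1, at an unadjusted p under 0.05). Without chrRNP 0 h replicate 2 Pou3f1 was called in the first, at 0.80 (adjusted p = 0.0299).

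In RNPmesh, the salt- and detergent-resistant nuclear material, Dnmt1 was the most abundant member at 0 h, above Dnmt3l. In total RNA of ESCs the order of these genes was the opposite. The 2 tables were scaled separately and hold different kinds of RNA, RNPmesh being listed as polyadenylated, and the order was not tested. Dnmt1 stood at 50.9 and 54.6 FPKM at 0 h, 50.96 and 61.5 at 4 h and 84.7 and 76.1 at 12 h, with both 12 h libraries above all others. Dnmt3a stood at 9.10 and 8.58 FPKM at 0 h, 5.71 and 7.40 at 4 h and 3.49 and 3.22 at 12 h, with no overlap between times. Dnmt3b stood at 9.70 and 9.60 FPKM at 0 h, 8.29 and 8.49 at 4 h and 5.89 and 5.45 at 12 h, again stepwise lower without overlap. Dnmt3l stood at 34.2 and 33.8 FPKM at 0 h, 25.1 and 32.9 at 4 h and 31.7 and 28.04 at 12 h, where every later library lay below both 0 h libraries and the later times overlapped each other. Pou3f1 stood at 1.72 and 1.84 FPKM at 0 h, 0.852 and 0.838 at 4 h and 0.571 and 0.535 at 12 h, lower at each time. Otx2 stood at 1.97 and 1.55 FPKM at 0 h, 0.661 and 0.518 at 4 h and 1.55 and 1.56 at 12 h, lowest at 4 h and at 12 h level with the lower 0 h library. Fgf5 was above 0 in 1 library of 6, at 0.029 FPKM. Among all genes, the share without overlap between times in RNPmesh was not counted.

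At 12 h against 0 h 1 of 6 tested members rose, where 16.3% of all genes rose, and 3 fell, where 31.6% fell and the median gene moved by -0.23. Dnmt1 rose by 0.60 ± 0.21 (SE; adjusted p = 0.0455). Dnmt3a changed by -1.18 ± 0.20 (SE; adjusted p = 0.00167). Dnmt1 and Dnmt3a thus carried calls of opposite sign, and the difference between these genes was not tested. Pou3f1 changed by -0.84 ± 0.19 (SE; adjusted p = 0.00646). It reached the minimum of 1 FPKM in 2 libraries only through the 0 h group, where it is high, so it drops out of the test when 1 of the 0 h libraries is left out, and its call supports no count; of the other 5 members 1 rose and 2 fell at 12 h, and 1 fell at 4 h. Dnmt3b changed by -0.68 ± 0.18 (SE; adjusted p = 0.0143). Rescaled (24.5% higher, 23.6% lower), Dnmt1 was at 0.87 (adjusted p = 0.00831), Dnmt3a at -0.94 (adjusted p = 0.00339), Pou3f1 at -0.70 (adjusted p = 0.0158) and Dnmt3b at -0.43 (adjusted p = 0.0676). The Dnmt1 call is close to the threshold: it was lost without any 1 of the 6 libraries, at adjusted p 0.0702 to 0.194, though its value stayed between 0.52 and 0.67, and the Dnmt3b call was lost without 12 h replicate 2 (adjusted p = 0.0824). At 4 h 2 of 6 members fell, where 19.1% of all genes fell and 5.49% rose and the median gene moved by -0.20. Otx2 changed by -0.79 ± 0.20 (SE; adjusted p = 0.0213). Pou3f1, tested only through its 0 h libraries here too, changed by -0.59 ± 0.19 (SE; adjusted p = 0.0497), and with no filter the adjusted p was 0.0638 for Pou3f1 and 0.058 for Otx2. Rescaled (9.06% lower, 11.9% higher), Otx2 was at -0.64 (adjusted p = 0.0461) and Pou3f1 at -0.43 (adjusted p = 0.124). The Otx2 call was lost without 0 h replicate 1 or either 4 h library (0.0751 to 0.105) and the Pou3f1 call without either 4 h or either 12 h library (0.0814 to 0.173).

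Partner genes in RNPmesh at 12 h included Mbd3, a subunit of the NuRD complex (-2.28, adjusted p = 1.41e-04), Ehmt2, the H3K9 methyltransferase G9a (-2.02, adjusted p = 3.00e-04), and Trim28 (-1.67, adjusted p = 9.23e-04), all lower. Of the methylation machinery 4 rose and 5 fell of 22 tested (median -0.10) against -0.23 over all genes. Of formative genes 0 rose and 9 fell of 16 tested (median -0.79), Foxd3 having the smallest p (-2.60, adjusted p = 2.78e-04). Over all genes 16.3% rose and 31.6% fell. Rescaled, 5 rose and 5 fell of the machinery, and 3 rose and 8 fell of the formative genes. Fibroblast markers stood at 902 to 1264 FPKM in RNPmesh at 0 h, of which Fn1 was 897 to 1260.0, with Dcn and Lum at 0; their part in these results was not tested.

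In the sucrose gradient, with 1 library per fraction and time, nothing was tested. Every member with at least 5 FPKM in sum at both times (5 of 7) had a higher FPKM-weighted mean fraction at 12 h than at 0 h. FPKM is scaled within each fraction library, and library sums ran from 139617 in F9 to 764218 in F2 at 12 h. Values weighted or summed over fractions are thus not amounts of RNA. Dnmt3a was listed over F2 to F9 at 3.01, 5.29, 5.05, 6.05, 6.22, 3.62, 2.52 and 1.66 FPKM at 12 h, against 17.5, 16.1, 16.6, 15.7, 11.5, 8.23, 5.24 and 3.11 at 0 h. Its value was lower at 12 h in each of the 8 fractions, and most so in F2. Dnmt3l was at 9.15, 12.1, 12.6, 13.2, 8.67, 3.59, 3.73 and 1.91 FPKM at 12 h, against 20.0, 24.97, 22.5, 14.8, 9.88, 3.98, 2.93 and 2.22 at 0 h. Dnmt1 was at 15.6, 21.1, 24.2, 26.0, 26.3, 24.0, 20.4 and 13.0 FPKM at 12 h, against 27.3, 31.1, 32.6, 32.7, 29.2, 21.9, 16.1 and 12.6 at 0 h. Dnmt1 was therefore lower at 12 h in F2 to F6 and higher in F7 to F9. The mean fraction, weighted by FPKM, was 5.44 at 12 h and 4.98 at 0 h for Dnmt1. It was 5.09 and 4.52 for Dnmt3a, 5.60 and 5.02 for Dnmt3b, 4.55 and 4.04 for Dnmt3l, and 5.68 and 5.07 for Pou3f1, shifts of 0.459 to 0.611 fractions. Otx2 and Fgf5 fell short of that sum and were left out. Of all 13056 genes placed, 93.1% shifted to a higher mean fraction, with a median shift of 0.436. The members thus did as nearly all genes did. Without F2 the Dnmt3a shift was 0.300 and the others 0.345 to 0.447. With each fraction library scaled to the same total, the Dnmt1 mean was 6.52 at 12 h and 6.07 at 0 h. That of Dnmt3a was then 6.07 and 5.57. The summed FPKM of Dnmt3a was 33.4 at 12 h and 93.9 at 0 h, that of Dnmt3b 22.6 and 51.8, that of Dnmt3l 64.9 and 101, that of Dnmt1 171 and 204, and that of Pou3f1 7.42 and 16.6. Total RNA was sampled at 20 h and not at 12 h, and not from nuclear lysate, so it offers no like comparison. In limma's test there the 4 methyltransferases were lower on the authors' scaling and Pou3f1 was not called. With rescaled libraries Dnmt1 was at 0.09 there (adjusted p = 0.186).

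**Figure D3:**
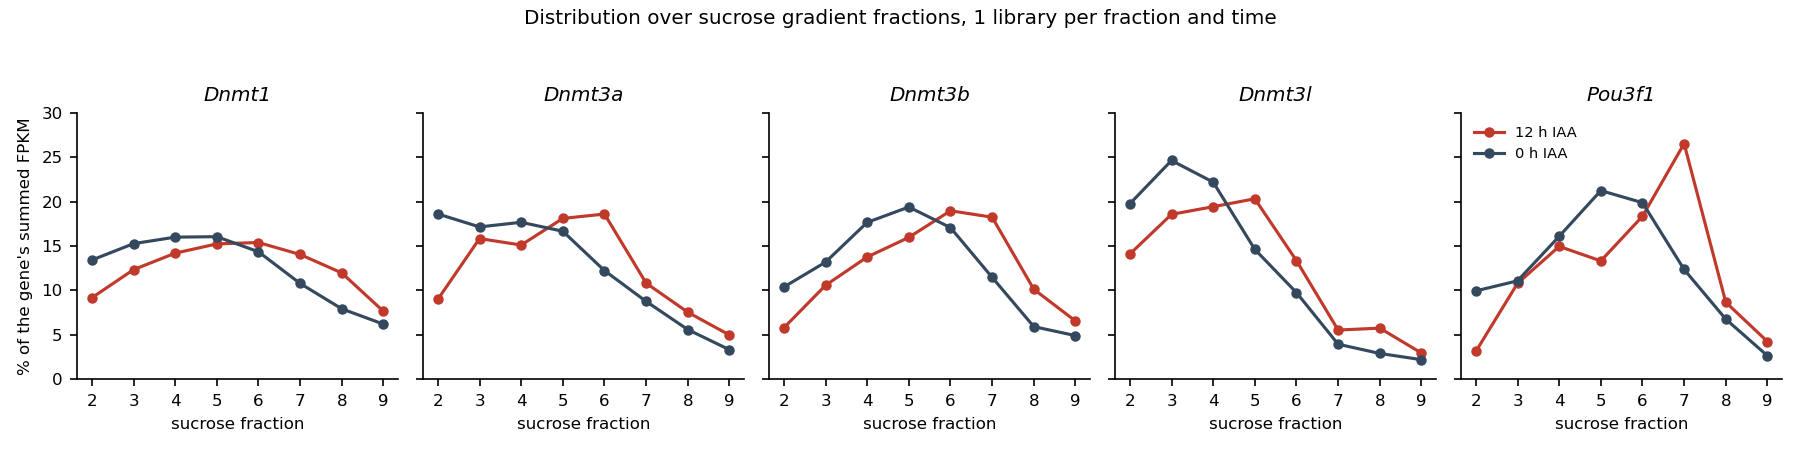
Share of each gene's summed FPKM in sucrose fractions F2 to F9 at 12 h (red) and 0 h (dark), 1 library per fraction and time. In all 5 genes the 12 h line lies below the 0 h line in F2 and above it in F7 to F9; the mean fraction of Dnmt3a is 5.09 at 12 h and 4.52 at 0 h.

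In polyadenylated RNA at 0 h the RAD1 cells differed from RAD0 cells in 5 of 6 tested members, Otx2 included, which was tested only through RAD0. Dnmt3a had 78.2 and 81.2 FPKM in RAD1 cells, against 44.6 and 44.8 in RAD0 cells, the only methyltransferase that was higher in RAD1. Dnmt3l had 8.20 and 10.1 FPKM in RAD1 cells, against 76.6 and 75.2 in RAD0 cells. Dnmt3b had 14.8 and 14.1 FPKM in RAD1 cells, against 38.6 and 39.9 in RAD0 cells. The RAD1 and RAD0 libraries of these genes lay far apart, so that Dnmt3a was the most abundant member in RAD1 and Dnmt3l in RAD0. Otx2 had 0.478 and 0.157 FPKM in RAD1 cells, against 1.58 and 3.25 in RAD0 cells. Dnmt1 had 44.7 and 45.2 FPKM in RAD1 cells, against 53.3 and 55.4 in RAD0 cells. 1 member was higher, where 27.7% of all genes were higher, and 4 were lower, Otx2 included, where 19.0% were lower. Dnmt3a differed by 0.82 ± 0.06 (SE; adjusted p = 1.23e-05). Dnmt3l differed by -2.93 ± 0.14 (SE; adjusted p = 9.78e-07). Dnmt3b differed by -1.38 ± 0.10 (SE; adjusted p = 1.10e-05). Dnmt3l, the cofactor, thus differed most. Otx2, which reached 1 FPKM in RAD0 libraries only and so was tested through the group where it is high, differed by -1.34 ± 0.24 (SE; adjusted p = 0.00212). The Otx2 call thus supports no count. Without it the calls are Dnmt3a, higher, and Dnmt3l, Dnmt3b and Dnmt1, lower. Dnmt1 differed by -0.27 ± 0.06 (SE; adjusted p = 0.00529). Pou3f1 had 9.99 and 9.46 FPKM in RAD1 cells, against 8.14 and 8.76 in RAD0 cells, a difference of 0.18 ± 0.15 (SE; adjusted p = 0.345). Fgf5 lay under 1 FPKM in all 12 libraries, 0.418 at most, in both kinds of cell.

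The lists around the members split between RAD1 and RAD0 at 0 h, where 27.7% of all genes were higher and 19.0% lower. Of the methylation machinery 4 were higher and 10 lower of 23 tested (median -0.10) against 0.08 over all genes. Tet1 was at 15.5 ± 0.455 FPKM in RAD1 and 77.2 ± 0.713 FPKM in RAD0 (SD, n = 2 each; -2.25, adjusted p = 5.44e-08). Zfp57, a guardian of imprints, was lower (-1.82, adjusted p = 2.97e-07). Of formative genes 8 were higher and 8 lower of 20 tested (median 0.08), with Sall2 higher (3.01, adjusted p = 2.64e-07) and Utf1 lower (-1.89, adjusted p = 3.96e-07). Of germline genes known to be silenced by DNA methylation 8 were higher and 0 lower of 12 tested (median 0.59), among them Mael (1.74, adjusted p = 2.19e-04), Dazl (1.12, adjusted p = 6.28e-04) and Brdt (0.97, adjusted p = 6.77e-04). Stra8, itself a germline gene induced by retinoic acid, is among the response markers that stood at 732 to 737 FPKM in RAD1; the part of that response in the germline list was not tested.

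Dnmt3a and Dnmt3b fell over the hours of IAA in both kinds of cell, and the other members went different ways. In RAD1 cells Dnmt3a stood at 78.2 and 81.2 FPKM at 0 h, 28.4 and 27.2 at 4 h and 11.3 and 10.6 at 20 h. In RAD0 cells it stood at 44.6 and 44.8 FPKM at 0 h, 31.5 and 34.9 at 4 h and 17.3 and 17.3 at 20 h. In RAD1 the 4 h level was already below that of RAD0. Dnmt3b stood in RAD1 cells at 14.8 and 14.1 FPKM at 0 h, 7.48 and 6.27 at 4 h and 6.57 and 5.37 at 20 h, with most of the step by 4 h. In RAD0 cells Dnmt3b stood at 38.6 and 39.9 FPKM at 0 h, 34.3 and 32.6 at 4 h and 14.7 and 13.9 at 20 h, with most of it after 4 h. Dnmt3l stood in RAD1 cells at 8.20 and 10.1 FPKM at 0 h, 9.52 and 12.8 at 4 h and 15.1 and 16.5 at 20 h, both 20 h libraries above both 0 h libraries. In RAD0 cells Dnmt3l stood at 76.6 and 75.2 FPKM at 0 h, 62.4 and 69.8 at 4 h and 36.97 and 33.03 at 20 h, both 20 h libraries below. Dnmt3l, the cofactor, thus went opposite ways in the 2 kinds of cell. Pou3f1 stood in RAD1 cells at 9.99 and 9.46 FPKM at 0 h, 10.9 and 8.87 at 4 h and 22.3 and 17.6 at 20 h, both 20 h libraries the highest. In RAD0 cells Pou3f1 stood at 8.14 and 8.76 FPKM at 0 h, 6.09 and 5.41 at 4 h and 6.85 and 8.69 at 20 h, with 20 h and 0 h overlapping. Dnmt1 stood in RAD1 cells at 44.7 and 45.2 FPKM at 0 h, 39.9 and 38.6 at 4 h and 38.3 and 34.8 at 20 h, and both later times lay below 0 h. In RAD0 cells Dnmt1 stood at 53.3 and 55.4 FPKM at 0 h, 50.7 and 48.6 at 4 h and 51.6 and 54.8 at 20 h, with 20 h and 0 h overlapping. Otx2 stood in RAD1 cells at 0.478 and 0.157 FPKM at 0 h, 0.566 and 0.710 at 4 h and 0.996 and 0.590 at 20 h, under 1 FPKM in all 6 libraries. In RAD0 cells Otx2 stood at 1.58 and 3.25 FPKM at 0 h, 1.21 and 0.953 at 4 h and 4.90 and 4.37 at 20 h, where the 20 h libraries were above all others. Among all genes, the share without overlap between times in RAD1 or RAD0 was not counted.

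At 20 h in RAD1 cells 3 of 6 members fell, where 33.8% of all genes fell. Dnmt3a changed by -2.75 ± 0.06 (SE; adjusted p = 1.05e-08). Dnmt3b changed by -1.16 ± 0.10 (SE; adjusted p = 1.70e-05). Dnmt1 changed by -0.29 ± 0.06 (SE; adjusted p = 0.00237). In the same cells 2 rose, where 23.1% rose. Pou3f1 changed by 0.96 ± 0.15 (SE; adjusted p = 5.59e-04). Dnmt3l changed by 0.73 ± 0.14 (SE; adjusted p = 0.00174). At 20 h in RAD0 cells 3 fell, where 33.0% of all genes fell. Dnmt3b changed by -1.40 ± 0.10 (SE; adjusted p = 8.73e-06). Dnmt3a changed by -1.32 ± 0.06 (SE; adjusted p = 8.54e-07). Dnmt3l changed by -1.10 ± 0.14 (SE; adjusted p = 2.11e-04). 1 rose, where 18.4% of all genes rose. Otx2 changed by 0.77 ± 0.24 (SE; adjusted p = 0.0279). The Otx2 call rests on few libraries: it was lost without RAD0 0 h replicate 1 (0.41, adjusted p = 0.179) and without either RAD0 20 h library (0.0683 and 0.114). Dnmt1 in RAD0 was at -0.03 ± 0.06 (SE; adjusted p = 0.704). The median gene moved by -0.11 in RAD1 and -0.13 in RAD0. Rescaled, 26.9% rose and 28.1% fell in RAD1, 23.9% and 24.8% in RAD0, and all of these calls held, with Dnmt1 at -0.17 (adjusted p = 0.0449) in RAD1 and Otx2 at 0.91 (adjusted p = 0.0145) in RAD0.

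At 4 h in RAD1 cells 3 of 6 members fell, where 32.7% of all genes fell and 18.1% rose. Dnmt3a changed by -1.49 ± 0.06 (SE; adjusted p = 5.05e-07). Dnmt3b changed by -0.98 ± 0.10 (SE; adjusted p = 7.54e-05). Dnmt1 changed by -0.19 ± 0.06 (SE; adjusted p = 0.0223). The median gene moved by -0.14; rescaled, 22.5% rose and 24.8% fell, Dnmt1 was at -0.06 (adjusted p = 0.48) and Dnmt3l was higher at 0.38 (adjusted p = 0.0452). The Dnmt1 call was lost without either RAD1 0 h library or RAD1 4 h replicate 2 (0.071 to 0.105), and Dnmt3l was called without RAD1 4 h replicate 1 (0.45, adjusted p = 0.0252). At 4 h in RAD0 cells 1 of 6 fell, where 13.5% of all genes fell and 5.26% rose (median -0.11; rescaled, 4.46% and 6.04%). Dnmt3a changed by -0.42 ± 0.06 (SE; adjusted p = 0.00304), and rescaled by -0.30 (adjusted p = 0.0204). Pou3f1 was at -0.49 ± 0.15 (SE; adjusted p = 0.0509) there, and was called when any 1 20 h library was left out (0.0427 to 0.0458), while Otx2 was called without RAD0 0 h replicate 1 (-1.03, adjusted p = 0.0295).

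**Figure D4:**
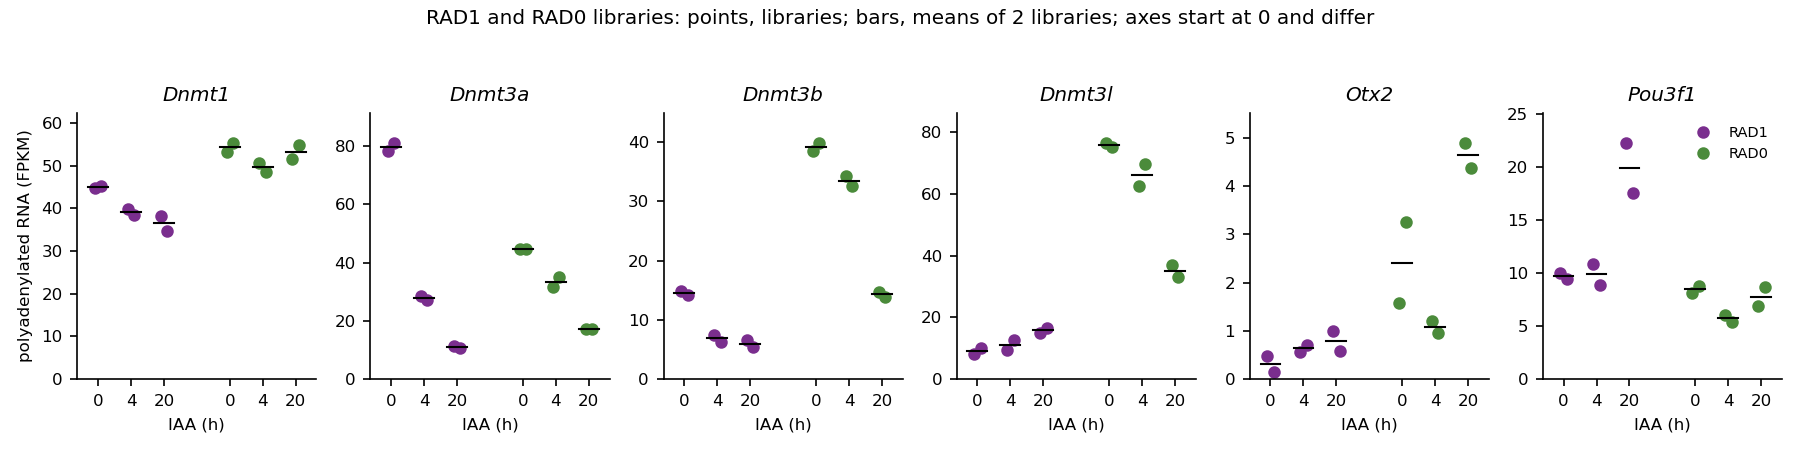
FPKM of 6 members in polyadenylated RNA by hours of IAA, RAD1 to the left and RAD0 to the right in each panel, with 1 point per library and a bar at the mean of 2 libraries; axes start at 0 and differ. Dnmt3a in RAD1 is at 78.2 and 81.2 FPKM at 0 h and 11.3 and 10.6 at 20 h, while Dnmt3l and Pou3f1 in RAD1 are highest at 20 h.

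The difference between the 2 responses was tested as an interaction. At 4 h the change in RAD1 minus that in RAD0 was -1.07 ± 0.09 (SE; adjusted p = 8.86e-05) for Dnmt3a and -0.76 ± 0.14 (SE; adjusted p = 0.0053) for Dnmt3b. These were 2 of 6 members, both lower, where 14.5% of all genes were lower and 12.7% higher. Without RAD0 0 h replicate 1 Otx2 joined them (1.35, adjusted p = 0.0155), and without RAD1 4 h replicate 1 Dnmt3l (0.65, adjusted p = 0.0296). At 20 h it was 1.83 ± 0.19 (SE; adjusted p = 3.40e-04) for Dnmt3l and 1.07 ± 0.21 (SE; adjusted p = 0.00647) for Pou3f1, 2 of 6 higher, where 13.9% of all genes were higher. It was -1.43 ± 0.09 (SE; adjusted p = 2.64e-05) for Dnmt3a and -0.27 ± 0.08 (SE; adjusted p = 0.0454) for Dnmt1, 2 of 6 lower, where 11.6% were lower. Dnmt3b, with 0.24 ± 0.14 (SE; adjusted p = 0.25), and Otx2, with -0.32 ± 0.35 (SE; adjusted p = 0.541), were not called at 20 h. The Dnmt1 difference is weak: it was lost when 1 of 10 of the 12 libraries was left out, at adjusted p 0.0591 to 0.130, and kept without RAD0 20 h replicate 1 or RAD1 20 h replicate 1. Retinoic acid response markers moved with these results, summing to 732 to 737, 195 to 199 and 71.7 to 87.2 FPKM in RAD1 at 0, 4 and 20 h and to 2.81 to 6.50 throughout RAD0, with all 5 markers at 1 FPKM or more in RAD1. ESC markers summed to 495 to 505, 505 to 511 and 387 to 403 FPKM in RAD1 and to 1319 to 1365, 1053 to 1073 and 895 to 903 in RAD0 at the same times. Trophoblast markers (Cdx2, Hand1, Gata3, Tfap2c) summed to 41.7 to 49.1 at 20 h and 7.21 to 8.99 at 0 h in RAD1, and to 42.3 to 46.9 and 11.8 to 13.4 in RAD0. The part of these cell-state markers in the members' results was not tested.

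At 20 h the machinery around the methyltransferases fell more often than it rose in both kinds of cell, as genes in general did. Over all genes 23.1% rose and 33.8% fell in RAD1, and 18.4% rose and 33.0% fell in RAD0. With rescaled libraries 6 rose and 11 fell of the machinery in RAD1, and 5 rose and 12 fell in RAD0. In RAD1 5 rose and 13 fell of 23 tested (median -0.32) against -0.11 over all genes. Uhrf1 was at 12.9 ± 0.548 FPKM at 20 h and 68.4 ± 0.00544 FPKM at 0 h (SD, n = 2 each; -2.33, adjusted p = 8.46e-09). In RAD0 3 rose and 14 fell of 23 tested (median -0.52) against -0.13, with Trim28 (-1.42, adjusted p = 6.71e-08) and Uhrf1 (-1.36, adjusted p = 2.38e-07). Of other formative genes 4 rose and 10 fell of 20 tested (median -0.24) in RAD1, Tead2 (-2.11, adjusted p = 7.01e-08) and Tcf15 (-2.04, adjusted p = 1.25e-06) among the lower, and 4 rose and 11 fell of 20 tested (median -0.50) in RAD0. Naive genes split in RAD1, where 2 rose and 5 fell of 10 tested (median -0.24), Klf5 being higher (1.44, adjusted p = 1.10e-06), whereas in RAD0 0 rose and 10 fell of 10 tested (median -1.11). The germline gene Taf7l was at 28.8 ± 2.04 FPKM at 20 h and 2.63 ± 0.245 FPKM at 0 h (SD, n = 2 each; 3.04, adjusted p = 8.40e-06) in RAD1. Of that list 2 rose and 1 fell of 12 tested (median 0.19) in RAD1 and 2 rose and 2 fell of 12 tested (median -0.14) in RAD0.

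**Figure D5:**
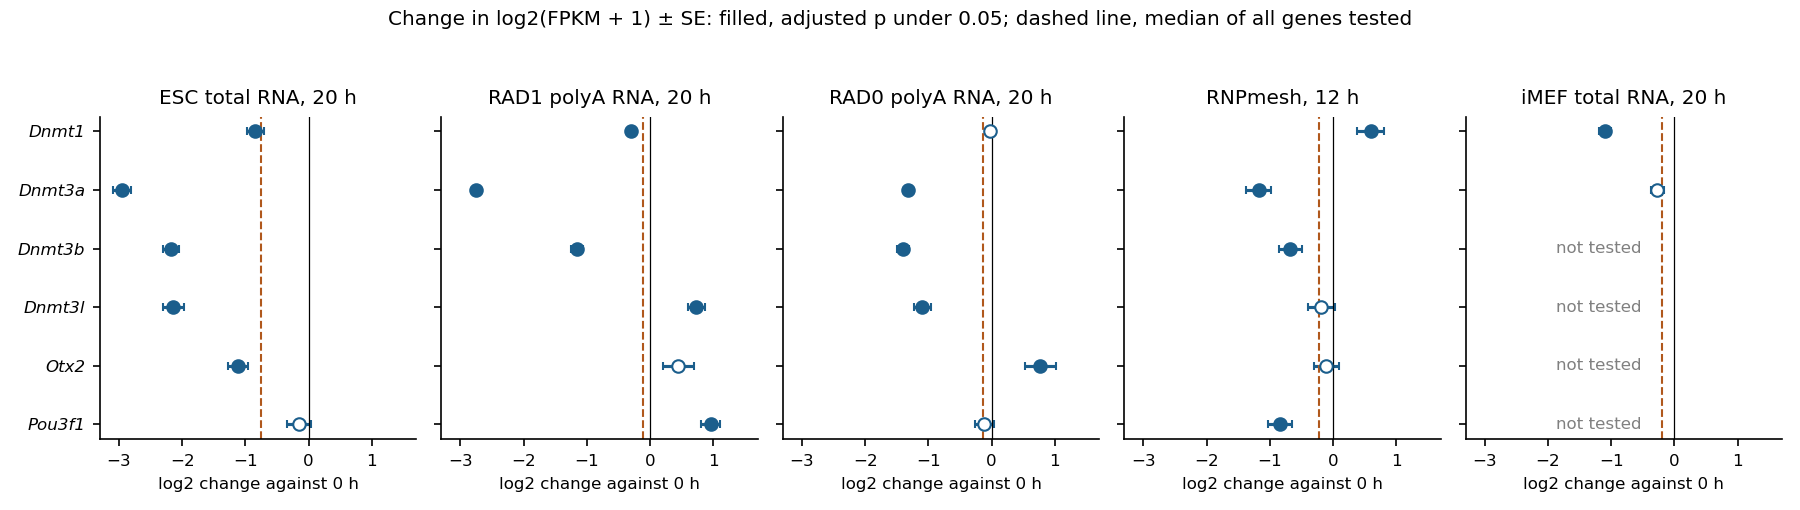
Log2 change (limma, on log2(FPKM + 1), with SE bars) of 6 members at the latest time of each table against 0 h; filled points passed the test, open points did not, and a dashed line marks the median of all genes. Dnmt3a lies furthest below the median gene in ESCs, RAD1 and RNPmesh, and in iMEFs Dnmt1 lies below Dnmt3a.

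In iMEFs the order of the methyltransferases at 0 and 4 h was Dnmt1, Dnmt3a, then Dnmt3b near or under 1 FPKM, while at 20 h Dnmt3a stood above Dnmt1. Dnmt3l was listed at 0 in 5 of 6 libraries. Dnmt1 stood at 20.5 and 21.1 FPKM at 0 h, 17.5 and 16.99 at 4 h and 9.84 and 8.57 at 20 h, with no overlap between times. Dnmt3a stood at 18.1 and 17.4 FPKM at 0 h, 14.97 and 16.3 at 4 h and 15.7 and 13.5 at 20 h, with every later library below both 0 h libraries. Among all genes, the share without overlap between times in iMEFs was not counted. Dnmt3b stood at 1.04 and 0.935 FPKM at 0 h, 0.422 and 0.807 at 4 h and 0.328 and 0.517 at 20 h, reaching 1 FPKM in 1 library only, and was not tested. Otx2 was above 0 in 1 library of 6, and Pou3f1 (0.064 to 0.185 FPKM) and Fgf5 (0.125 to 0.468 FPKM) lay under 1 FPKM in all 6. At 20 h 1 of the 2 tested members fell, where 22.2% of all genes fell and 5.21% rose and the median gene moved by -0.19. Dnmt1 changed by -1.10 ± 0.10 (SE; adjusted p = 9.40e-04). Rescaled, 13.2% rose, 13.5% fell and Dnmt1 was at -0.88 (adjusted p = 5.27e-04). Dnmt3a was at -0.27 ± 0.10 (SE; adjusted p = 0.0982), and was called without iMEF 20 h replicate 1 (-0.37, adjusted p = 0.0292). At 4 h 0 of 2 passed in limma's test and 1 (Dnmt1) had an unadjusted p under 0.05, where 0.200% of all genes fell, 1.43% rose and the median gene moved by -0.17 (rescaled, 0.300% and 2.64%), with Dnmt1 at -0.26 ± 0.10 (SE; adjusted p = 0.172) and Dnmt3a at -0.17 ± 0.10 (SE; adjusted p = 0.29). The ESC and iMEF tables were scaled separately, so the 20 h values of Dnmt3a, -2.95 in ESCs and -0.27 in iMEFs, stand side by side and their difference was not tested.

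Uhrf1 and Hells, partners of Dnmt1, fell in iMEFs at 20 h. Uhrf1 was at 3.52 ± 0.436 FPKM at 20 h and 14.5 ± 0.612 FPKM at 0 h (SD, n = 2 each; -1.79, adjusted p = 4.01e-04). Hells, a chromatin remodeller needed for methylation of repeats, was at 2.46 ± 0.121 FPKM at 20 h and 7.996 ± 0.0585 FPKM at 0 h (SD, n = 2 each; -1.38, adjusted p = 4.64e-04). Of the methylation machinery 0 rose and 8 fell of 22 tested (median -0.21) against -0.19 over all genes, and 2 rose and 4 fell when rescaled. Over all genes 5.21% rose and 22.2% fell, and 13.2% rose and 13.5% fell when rescaled. None of the 14 germline genes passed the filter in iMEFs. Dnmt1 was the only member tested in all 6 replicated tables. The genes whose levels followed it most closely over the 54 libraries, among 6277 genes and after each table was centred, were Tpx2 (Pearson r = 0.941), Rangap1 (0.939) and Nup107 (0.934), given as a description, since the libraries share scaling and treatment.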

How the data were processed

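The authors deposited FPKM per gene for total, polyadenylated, fractionated and sucrose-gradient RNA (TopHat2 2.0.11, Cufflinks 2.0.2 and bedtools, mm10, per the submitters' processing notes), RPKM per gene for nascent RNA (Trim Galore, TopHat2 and bedtools) and peak positions for H3K27ac (Bowtie2 2.2.6, MACS2 and bedtools). Whether spike-in RNA entered the values, and whether reads were counted by strand, the sources used here do not give; genes with reads that overlap a member are Dnmt3bos (antisense; Dnmt3b, up to 1.54 FPKM), Gm2164 (antisense; Pou3f1, up to 4.38 FPKM), Aire (protein-coding; Dnmt3l, up to 4.66 FPKM) and Mir7081 (a miRNA in Dnmt1, up to 14.96 RPKM in nascent RNA), with others under 1. Of 139 samples 70 expression libraries and 2 peak lists were used. FPKM keeps no read depth, so the number of libraries limits precision.

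Each of the 6 replicated tables was fitted by itself with limma 3.58.1 (R 4.3.3; trend) on log2(value + 1), a scale that understates the change of low genes, with a mean per group, genes at 1 or more in at least 2 libraries, 25 contrasts and Benjamini-Hochberg adjustment over all genes at 0.05. The fit was tested on simulated data. Rescaling divided each library by its median ratio to the table. Python 3.11.15, pandas 2.3.3 and numpy 2.4.6 did the rest. The members and lists were chosen with earlier results of these data known, and 1 marker gene is not reported here and was left out of its sum. Genes named from a list were the 3 with the smallest p among those called in a comparison, of which part is printed. Overlap of peaks with start sites needed 1 base within 1000.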

Additional observations from a re-analysis of the deposited data

Results flagged for a closer look

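The change over IAA differed between RAD1 and RAD0 cells in limma's interaction test for these members, on the log2(FPKM + 1) scale and as the change in RAD1 minus that in RAD0. At 4 h the difference was -1.07 for Dnmt3a (adjusted p = 8.86e-05), whose change was -1.49 in RAD1 and -0.42 in RAD0, and -0.76 for Dnmt3b (adjusted p = 0.0053), whose change was -0.98 in RAD1 and -0.22 in RAD0. At 20 h it was -1.43 for Dnmt3a (adjusted p = 2.64e-05) and -0.27 for Dnmt1 (adjusted p = 0.0454). At the same time it was 1.83 for Dnmt3l (adjusted p = 3.40e-04), which was higher at 20 h in both RAD1 libraries and lower in both RAD0 libraries, and 1.07 for Pou3f1 (adjusted p = 0.00647). The Dnmt3l difference is the one in which both kinds of cell passed the test in opposite directions.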

How the results depend on the processing

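Of 136 member values recomputed under each setting, 130 kept their side of the threshold, with no called value turned, with a pseudocount of 0.1, 125 with no filter, 122 with rescaled libraries, 131 with the replicate number as a block and 133 with no variance trend, and of 1562 recomputed without 1 library 1459 did. Among values called under neither setting, 20 changed sign with rescaled libraries, 1 with the pseudocount of 0.1 and 34 without 1 library. In ESCs at 20 h rescaling reversed Dnmt1 to 0.092 and Pou3f1 to 0.69. The number of members called moved by over 1.5 times as follows. In ESCs at 4 h it was 2, against 0 with no filter or rescaled libraries and 1 under the replicate block or with no variance trend. In np at 4 h it was 1, against 0 with the small pseudocount, no filter or rescaled libraries and 2 under the replicate block. In cyto at 4 h it was 1, against 0 with the small pseudocount or no filter; for np against cyto 4, against 2 with no filter. In RNPmesh at 4 h it was 2, against 0 with no filter and 1 with the small pseudocount, rescaled libraries or the replicate block, and in RAD0 at 4 h 1, against 2 with the small pseudocount. The cause was not tested. Without 1 library the counts ran 0 to 4 in ESCs at 4 h, 3 to 4 between 20 and 4 h, 0 to 5 in chrRNP, 0 to 6 in np, 0 to 1 in cyto and 1 to 3 in wcl at 4 h, 2 to 4 for np against cyto, 0 to 1 for the chrRNP change against the cyto change, 0 to 1 at 4 h and 2 to 3 at 12 h in RNPmesh, 1 to 2 at 4 h and 3 to 4 at 20 h in RAD0, 2 to 4 in RAD1 at 4 h, 2 to 3 and 3 to 4 for the interactions at 4 and 20 h, and 1 to 2 in iMEFs at 20 h; a lone library of a group is then assumed to vary like the others. The differences between replicates 1 and 2 correlated at most weakly between groups (correlations of -0.145 to 0.145). Whether replicates of the same number were prepared together is not given. The sucrose count (5 of 5) and the count of marked start sites (4 of 15) stayed under every alternative tried.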
